A study of Drosophila melanogaster with 9 samples.

Results

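The genes described here encode the receptors through which neurons of the fly brain answer acetylcholine, GABA, glutamate and histamine. They are 31 of the 17562 gene IDs measured in dissected brains of *Drosophila melanogaster*. They were listed by name with no measured value in the rule, though earlier results of these data were known. All 31 were present in both deposited tables. The set holds 13 acetylcholine receptor genes, 6 GABA receptor genes, 10 glutamate receptor genes and 2 histamine receptor genes. Of these genes 24 encode subunits of ion channels and 7 encode receptors that act through G proteins.

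In insects acetylcholine is the main fast excitatory transmitter of the central brain, and its nicotinic receptors are pentameric cation channels built from alpha and beta subunits. GABA inhibits through chloride channels such as Rdl and through G protein-coupled GABA-B receptors. Glutamate excites through AMPA-type, kainate-type and NMDA-type channels, and in insects it also inhibits through the chloride channel GluClalpha. Histamine is the transmitter of the photoreceptors and opens the chloride channels ort and HisCl1 in and near their target cells.

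Poly(A) RNA was sequenced from 3 groups of 3 libraries, each library a pool of 20 brains from adult females aged 4 to 6 days. The first group, PGRP-LB Ecc15, came from PGRP-LB mutants fed for 16 h with Ecc15, a Gram-negative bacterium of plants that infects the fly gut by mouth. WT Ecc15 libraries came from wild-type flies after the same exposure, and WT control libraries from unexposed wild-type flies. PGRP-LB is a secreted and cytosolic enzyme that cleaves bacterial peptidoglycan, and the study asks how peptidoglycan that reaches the brain alters gene expression. Exposure lasted 16 h per the labels, whereas the design text of the series speaks of a 24-hour diet. No unexposed mutant group is among the samples, so in every comparison of PGRP-LB Ecc15 with WT control the genotype and the exposure cannot be told apart. The allele is named PGRP-LBD in the deposited columns, and the sources used here do not describe it further.

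The mutant and wild-type strains also differed in RNA of a gene used as a transformation marker. The eye colour gene *w* had 11962, 18926 and 11128 normalized counts in PGRP-LB Ecc15 libraries, against 5, 6 and 13 in WT control libraries. In WT Ecc15 libraries it had 4, 5 and 7. *PGRP-LB* itself, the targeted gene, had 687, 1359 and 721 normalized counts in PGRP-LB Ecc15 libraries, against 164, 120 and 151 in WT control libraries. WT Ecc15 libraries, scaled separately, had 335, 261 and 224, against 167, 122 and 154 in WT control libraries on that scale. The part of the gene that the allele alters is not described, so the values of *PGRP-LB* do not check the labels. Each exposed group has a table of normalized counts of its own, made by the authors, and the WT control libraries stand in both tables. Normalized totals were 25.3 to 27.8 M per library (M, mega), and the counted reads behind them were estimated at 19.4 to 30.7 M. Libraries are named S1 to S3 within a group, as in the columns. All 9 neuron markers were detected in every library, and none of them passed the limma test described later in either exposed group. At an unadjusted p under 0.05 there were 1 in PGRP-LB Ecc15 and 0 in WT Ecc15, beside 31.5% and 7.28% of all genes. Since p-values rest on 3 pools a group, they measure only the spread between these pools, and in whole brains fewer cells of a type and less RNA per cell cannot be told apart.

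Photoreceptor RNA set libraries apart within all 3 groups. The 13 photoreceptor markers, rhodopsins and phototransduction genes, summed to 153040, 129023 and 26288 normalized counts in PGRP-LB Ecc15 libraries and to 134737, 94083 and 227116 in WT Ecc15 libraries. In WT control libraries of the wild-type table the sum was 305616, 370517 and 54465. None of the 13 was at 0 in any library and none passed the test in either exposed group. An unadjusted p under 0.05 was found for 0 of them, beside 31.5% of all genes in PGRP-LB Ecc15 and 7.28% in WT Ecc15. Median log2 changes were -1.21 in PGRP-LB Ecc15 and -0.41 in WT Ecc15 brains. These sums are set beside the receptor genes of the visual system where those are described.

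Levels in unexposed brains were compared between genes as normalized counts per kilobase of merged exons (means ± SD, n = 3 WT control libraries). These levels depend on the annotated length. Per kilobase of the longest transcript instead, *nAChRbeta1* stayed highest, and *GluClalpha* at 3576 ranked just above *GABA-B-R2* at 3572. The acetylcholine receptor genes summed to 23823 ± 3595 per kilobase, or 51.9% to 54.8% of the whole set in the 3 libraries. Glutamate receptor genes followed with 10135 ± 1199 and GABA receptor genes with 9988 ± 805, and these sums overlapped between libraries. The histamine receptor genes reached 742 ± 114 per kilobase. The members held 0.76% to 0.952% of all normalized counts in WT control libraries.

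**Figure D1:**
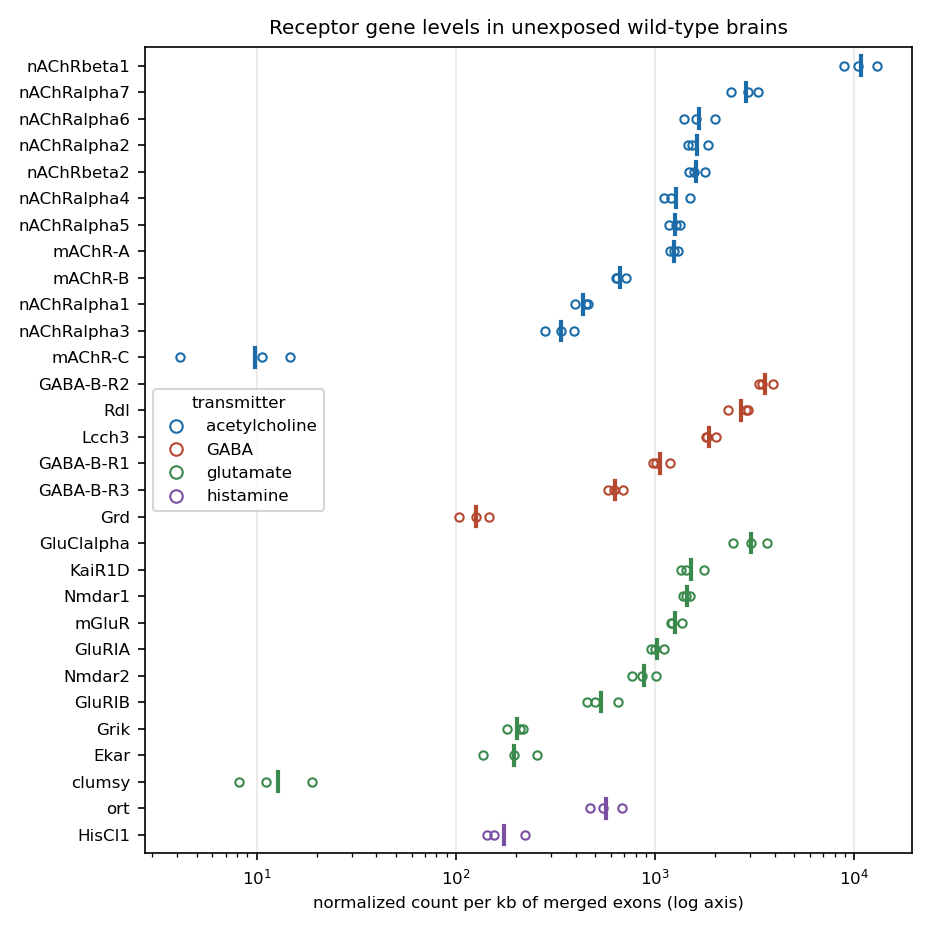
Normalized count per kilobase of merged exons (log axis) of the 30 receptor genes detected in WT control brains, grouped by transmitter. Open circles are the 3 WT control libraries of the wild-type table and bars their mean; nAChRbeta3 is listed at 0 and not drawn. nAChRbeta1 stands highest at 10802 per kilobase, and clumsy and mAChR-C lie near 10.

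Among the nicotinic genes, *nAChRbeta1* stood far above the rest. It encodes the beta subunit found in most receptors that bind neonicotinoid insecticides. Its level was 8898, 10440 and 13069 per kilobase in WT control S1, S2 and S3, a mean of 10802 ± 2109. It made up 43.3% to 47.2% of the acetylcholine receptor sum in single libraries. It lay 3.55 to 3.98 times above *nAChRalpha7*, the next nicotinic gene, which serves the giant fibre escape circuit and had 2876 ± 442 per kilobase. It lay 5.96 to 7.28 times above *nAChRbeta2* at 1618 ± 158.

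The other alpha subunits fell into a middle and a low group. *nAChRalpha6*, the target of the insecticide spinosad, had 1673 ± 308 per kilobase and *nAChRalpha2* had 1619 ± 208. *nAChRalpha4*, known as a sleep gene, had 1273 ± 202, with 13.4% of its exons in transposon fragments on the same strand, and *nAChRalpha5* had 1263 ± 80.8. These values overlap between neighbours in the order. *nAChRalpha1* and *nAChRalpha3* were lower, at 437 ± 32.8 and 338 ± 56.4 per kilobase. *nAChRalpha1*, *nAChRalpha2* and *nAChRbeta2* lie close together on chromosome 3R, with 28.3 kb between the alpha genes and 18.1 kb between *nAChRalpha2* and *nAChRbeta2*. Per kilobase the first stood well below both others, on merged exons of 11.0, 2.39 and 4.02 kb. Their mean normalized counts in WT control libraries, without division by length, were 4815, 3864 and 6499.

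*nAChRbeta3* was listed at 0 in all 9 libraries, as were 1987 of all gene IDs (11.3%). Its exons, 1.53 kb in all on chromosome 2L, lie wholly (100%) under exons of *Ets21C* on the opposite strand. Whether reads were counted by strand is not given in the sources used here, and *Ets21C* had 247, 239 and 252 normalized counts in PGRP-LB Ecc15 libraries, against 77, 62 and 78 in WT control libraries. The 0 is therefore given as a listing and not as an absence of transcript.

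The muscarinic receptors formed a clear order in unexposed brains. *mAChR-A*, which couples to Gq, had 1249 ± 58.4 per kilobase, 1.83 to 1.93 times the level of the Gi-coupled *mAChR-B* at 666 ± 42.2. *mAChR-C* was the lowest detected member, with 5, 13 and 18 normalized counts in the WT control libraries and a mean of 9.85 ± 5.38 per kilobase.

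Among the GABA receptor genes the G protein-coupled *GABA-B-R2* was highest, at 3343, 3463 and 3903 per kilobase in WT control S1, S2 and S3 (mean 3570 ± 295). Its obligate partner in the functional GABA-B dimer, *GABA-B-R1*, had 1063 ± 116, so that the ratio of R2 to R1 was 3.26 to 3.54 in single libraries. *GABA-B-R3*, an insect-specific family member, had 634 ± 56.9. Of the channel subunits, *Rdl*, the site of resistance to the insecticide dieldrin, had 2714 ± 327 and *Lcch3* had 1881 ± 122. *Grd*, which can pair with Lcch3 in a cation channel opened by GABA, was the lowest at 104, 146 and 127 per kilobase, and *Rdl* exceeded it 20.1 to 22.6 times. Exons of genes on the opposite strand cover 31.3% of *Lcch3* and 27.5% of *Grd*, so their values are uncertain if counting ignored strand.

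The glutamate receptor genes were led by *GluClalpha*, the inhibitory chloride channel targeted by ivermectin, with 2472, 3043 and 3641 per kilobase in WT control S1, S2 and S3 (mean 3052 ± 585). *KaiR1D*, a kainate-type receptor that works presynaptically at the larval neuromuscular junction, followed with 1515 ± 216. The NMDA-type subunits *Nmdar1* and *Nmdar2* had 1442 ± 57.0 and 883 ± 127, a ratio of 1.48 to 1.81. Per kilobase of the longest transcript their means were closer, at 1442 and 1048. The metabotropic *mGluR* had 1266 ± 83.4, and the AMPA-type *GluRIA* and *GluRIB* had 1026 ± 83.5 and 538 ± 104.

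The other kainate-type genes were low. *Grik*, which lies 35.7 kb from *KaiR1D* on chromosome 3R, had 203 ± 19.9 per kilobase, and *KaiR1D* exceeded it 6.57 to 8.37 times. *Ekar*, the eye-enriched kainate receptor of photoreceptors, had 195, 256 and 136 per kilobase in WT control S1, S2 and S3. *clumsy* had 8.18, 19.0 and 11.1 per kilobase, the lowest of the glutamate receptors. The histamine channel *ort*, which receives photoreceptor input in the lamina, had 549, 683 and 473 per kilobase, and *HisCl1* had 223, 156 and 143. The ratio of *ort* to *HisCl1* varied from 2.46 to 4.36 between WT control libraries; exons of *Sbf* on the opposite strand cover 5.40% of *HisCl1*.

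WT control libraries differed from each other in a direction most receptor genes shared. WT control S1 was the lowest of the 3 for 23 of the 30 detected members (76.7%), against 36.0% of all 13085 genes tested. WT control S3 was the highest for 21 of 30 (70.0%), against 35.7% of all genes. The sum of the acetylcholine receptor genes accordingly was 20536, 23269 and 27663 per kilobase in S1, S2 and S3. These same libraries are used in both comparisons, so most members carry this spread in their error.

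Receptor sums did not separate the PGRP-LB Ecc15 libraries from WT control. Acetylcholine receptor genes summed to 23232, 21839 and 23672 per kilobase in PGRP-LB Ecc15 libraries, against 20266, 22887 and 27094 in WT control libraries of the same table. The sums for GABA receptors were 10355, 9771 and 10577 in PGRP-LB Ecc15 and 9082, 9785 and 10590 in WT control libraries. For glutamate receptors they were 10604, 10149 and 10829 in PGRP-LB Ecc15, against 8921, 9785 and 11182 in WT control libraries. Each of these ranges overlapped, and so did those of the histamine receptors, at 756 to 918 in PGRP-LB Ecc15 and 603 to 825 in WT control libraries. The share of *nAChRbeta1* in the acetylcholine receptor sum did not overlap, at 40.4% to 42.2% in PGRP-LB Ecc15 and 43.3% to 47.2% in WT control libraries. Normalized counts of *nAChRbeta1* itself did overlap, and 35.7% of all genes did not overlap in this comparison. An exact permutation test of 3 against 3 cannot go below 0.1, so no test of these sums is given.

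**Figure D2:**
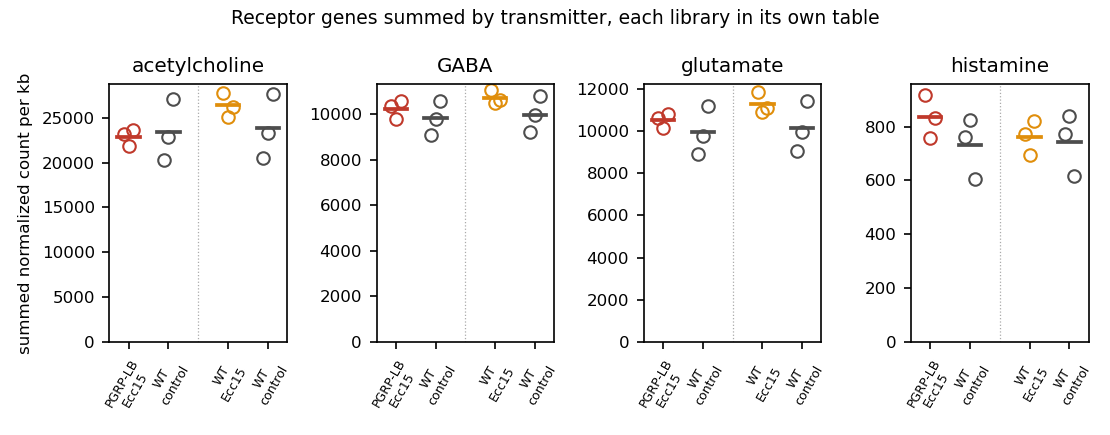
Normalized counts per kilobase summed over the receptor genes of each transmitter, 1 circle a library, with group means as bars. The left pair in each panel is PGRP-LB Ecc15 and WT control in the PGRP-LB table, and the right pair is WT Ecc15 and WT control in the wild-type table. The circles of each exposed group overlap with those of WT control in both pairs for GABA, acetylcholine, glutamate and histamine.

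In PGRP-LB Ecc15 brains 1 receptor gene rose and 1 fell against WT control, both of the kainate type: *clumsy* increased and *Ekar* decreased. The test was limma-trend on log2(value + 1) over all genes with a mean of at least 1, with p-values adjusted by Benjamini-Hochberg and called under 0.05. It called 9.65% of all 13384 tested genes higher and 6.26% lower, and of the 30 tested members 1 in each direction. The members' median log2 change was 0.06, beside 0.01 over all genes, and 20 of 30 lay above 0, beside 51.6% of all genes. Leaving out 1 library at a time gave medians of -0.02 (without WT control S1) to 0.10 (without WT control S3) and 15 to 21 members above 0, so the sign of the median rests on WT control S1. Without adjustment 7 of 30 members had a p under 0.05, beside 31.5% of all genes. Under quantile normalization, which lowers the median of all genes by 0.10, 16 of 30 members lay above 0 and their median was 0.01. The groups did not overlap for 7 of the 30 members (23.3%), beside 35.7% of all genes (18.8% higher and 16.9% lower): 4 were higher in PGRP-LB Ecc15 and 3 lower. The authors' deposited table calls 3 members higher and 2 lower, beside 9.03% and 6.19% of the 15338 genes it tests (15.2% in either direction).

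*clumsy* (chromosome 2L, 21206493 to 21211818, plus strand, BDGP6) had 100, 180 and 134 normalized counts in PGRP-LB Ecc15 libraries, against 27, 64 and 38 in WT control libraries. Every PGRP-LB Ecc15 library stood above every WT control library. The log2 change was 1.71 (SE 0.37), with a limma adjusted p of 0.0229, and the authors' deposited table gives an adjusted p of 0.0003. The WT Ecc15 libraries, with 46, 23 and 43 normalized counts, overlapped with their WT control libraries, at 28, 65 and 38. Leaving out any of WT control S1, WT control S3, PGRP-LB Ecc15 S2 or PGRP-LB Ecc15 S3 raised the adjusted p above the threshold, up to 0.0859, while the log2 change stayed between 1.42 and 2.03; limma without its variance trend gave 0.0518. Even in the PGRP-LB Ecc15 libraries *clumsy* remained far below the other kainate-type genes *KaiR1D* and *Grik*, which had log2 changes of 0.03 and -0.08.

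*Ekar* (chromosome 4, 636131 to 646556, minus strand) had 321, 306 and 198 normalized counts in PGRP-LB Ecc15 libraries, against 572, 749 and 397 in WT control libraries. All PGRP-LB Ecc15 libraries were below all WT control libraries. The log2 change was -1.04 (SE 0.27), with a limma adjusted p of 0.0437, and the authors' deposited table gives 0.0009. In 5 of the 6 fits without 1 library, all but that without WT control S3, the adjusted p rose above the threshold, up to 0.128, and limma without its variance trend gave 0.0991. WT Ecc15 libraries had 662, 478 and 841 normalized counts of *Ekar*, against 580, 762 and 405 in WT control libraries of their table.

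*Ekar* moved with the photoreceptor markers between libraries of 1 group. Within each of the 3 groups the order of the libraries by *Ekar* was their order by the photoreceptor sum. Across groups the order differed: PGRP-LB Ecc15 S1 and S2 had more photoreceptor RNA than WT control S3, 153040 and 129023 against 53344 in the same table, and less *Ekar*, 321 and 306 against 397 normalized counts. With the mean photoreceptor level as a covariate, a fit chosen after seeing the data, the log2 change of *Ekar* in PGRP-LB Ecc15 was -0.68 with a limma adjusted p of 0.0173. The same fit gave *clumsy* a log2 change of 1.77 and an adjusted p of 0.0447. Marker sums ran from 26288 to 153040 in PGRP-LB Ecc15 and from 53344 to 364433 in WT control libraries. Marker level and group are thus partly confounded, and this fit cannot tell them apart. Whether photoreceptor RNA bears on the change of *Ekar* was not tested.

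**Figure D3:**
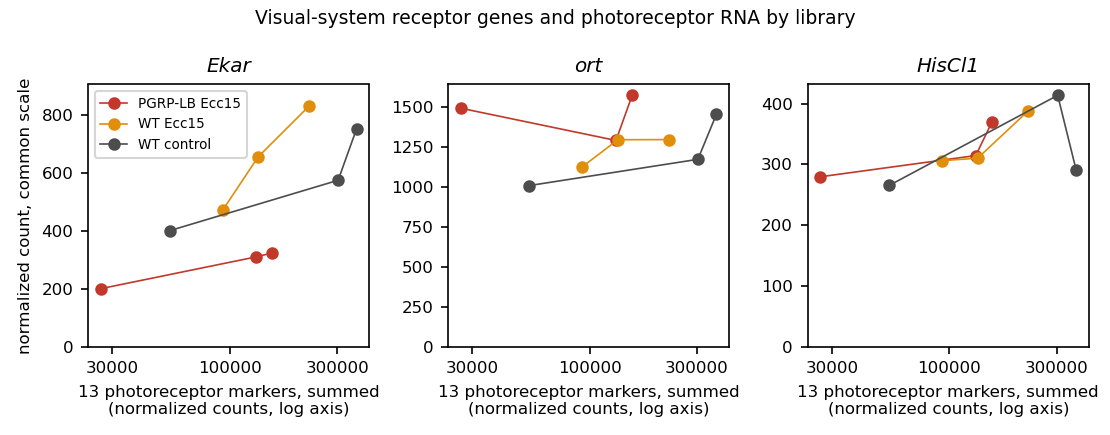
Normalized counts of *Ekar*, *ort* and *HisCl1* against the summed normalized counts of 13 photoreceptor markers (log axis) in all 9 libraries, on a scale common to both tables; lines join the libraries of a group. For *Ekar* each group rises with photoreceptor RNA, and PGRP-LB Ecc15 S1 and S2 lie below WT Ecc15 S1 at like marker levels. PGRP-LB Ecc15 S3 has the lowest marker sum of all. *ort* and *HisCl1* keep the photoreceptor order in 2 of 3 groups each, and their groups overlap.

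None of the remaining glutamate receptor genes passed the test in PGRP-LB Ecc15 brains. Of all 10, *clumsy* and *Ekar* included, 4 had an unadjusted limma p under 0.05, beside 31.5% of all genes. The groups did not overlap for 4 of these 10 glutamate receptor genes, beside 35.7% of all genes. Of the 9 ionotropic ones, *clumsy* and *Ekar* included, 3 had log2 changes above 0 as scaled by the authors and under quantile normalization. *Nmdar1*, the obligatory NMDA subunit, had 5038, 4783 and 5318 normalized counts in PGRP-LB Ecc15 libraries, against 5727, 5872 and 6143 in WT control libraries. The groups did not overlap, and all PGRP-LB Ecc15 libraries were lower. The log2 change was -0.23 (SE 0.06) with a limma adjusted p of 0.0503, just outside the threshold, and the authors' deposited table gives 0.0294. It passed in 5 of 15 alternative fits, among them quantile normalization (adjusted p 0.0271), and in none of those without 1 library. *Nmdar2* had a log2 change of -0.13 with overlapping groups, and *GluRIA* and *GluRIB* had -0.14 and -0.12, also with overlap.

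*GluClalpha*, by contrast, had higher values in PGRP-LB Ecc15 libraries without passing the test. Its normalized counts were 27025, 26274 and 26605 in PGRP-LB Ecc15 libraries, against 16180, 19851 and 23658 in WT control libraries. The exposed mutant libraries were close to each other and all above the WT control libraries, which were spread widely. The log2 change was 0.44 (SE 0.13) with a limma adjusted p of 0.0655, and the authors' deposited table gives 0.0119. Without WT control S3, the control library with the highest *GluClalpha*, the adjusted p was 0.0211. *mGluR* had 8441, 7666 and 8192 normalized counts in PGRP-LB Ecc15, against 7583, 7655 and 8469 in WT control libraries, an overlap with a log2 change of 0.04.

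Of the 6 GABA receptor genes none passed the test in PGRP-LB Ecc15 brains (1 at an unadjusted p under 0.05, beside 31.5% of all genes), and 5 had log2 changes above 0 (4 under quantile normalization). *GABA-B-R1* had 7144, 6763 and 7517 normalized counts in PGRP-LB Ecc15 libraries, against 5652, 5434 and 6609 in WT control libraries. These groups did not overlap, with a log2 change of 0.28 (SE 0.09), a limma adjusted p of 0.0739 and 0.0443 in the authors' deposited table. Its dimer partner *GABA-B-R2* was almost level, with a log2 change of 0.00 and a 95% interval from -0.17 to 0.18. *Rdl* had a log2 change of 0.13, *Grd* 0.09, *GABA-B-R3* 0.08 and *Lcch3* -0.07, all with overlapping groups.

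The acetylcholine receptor genes gave no call in PGRP-LB Ecc15 brains either (2 at an unadjusted p under 0.05, beside 31.5% of all genes). Of the 12 tested, 9 had log2 changes above 0, and 7 under quantile normalization. *nAChRalpha4* had 9925, 8907 and 9259 normalized counts in PGRP-LB Ecc15, against 6646, 7170 and 8886 in WT control libraries. Its lowest exposed library stood just above the highest WT control library, and the log2 change was 0.32 with a limma adjusted p of 0.101, or 0.0187 without WT control S3. *mAChR-B* had 2807, 2387 and 2944 normalized counts in PGRP-LB Ecc15, against 3044, 3055 and 3376 in WT control libraries, lower in each but with a limma adjusted p of 0.151. *nAChRbeta1*, the most abundant member, had a log2 change of -0.15 (95% interval -0.47 to 0.17).

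Among the other nicotinic genes the log2 change ran from -0.08 for *nAChRalpha2* to 0.16 for *nAChRalpha3* in PGRP-LB Ecc15 brains, all with overlap. *mAChR-C*, with 8, 17 and 14 normalized counts in PGRP-LB Ecc15 and 5, 13 and 17 in WT control libraries, is too low for a change to be read. The histamine channels overlapped too. *ort* had 1560, 1274 and 1476 normalized counts in PGRP-LB Ecc15, against 1168, 1449 and 999 in WT control libraries (log2 change 0.26), and *HisCl1*, with 366, 310 and 276 in PGRP-LB Ecc15 and 412, 288 and 263 in WT control libraries, had a log2 change of 0.00. Set beside the photoreceptor sum, the libraries stood in the same order for *ort* in the WT Ecc15 and WT control groups but not in PGRP-LB Ecc15, and for *HisCl1* in both exposed groups but not in WT control. With photoreceptor level as a covariate the log2 changes in PGRP-LB Ecc15 were 0.36 for *ort* and 0.16 for *HisCl1*, with limma adjusted p of 0.165 and 0.613. For 27 of the 30 members the 95% interval of the fold lay within 2-fold either way, and for 25 within 1.5-fold, beside 54.7% and 41.6% of all genes. Genes with means down to 1 are among all genes, so the shares are not matched for level.

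**Figure D4:**
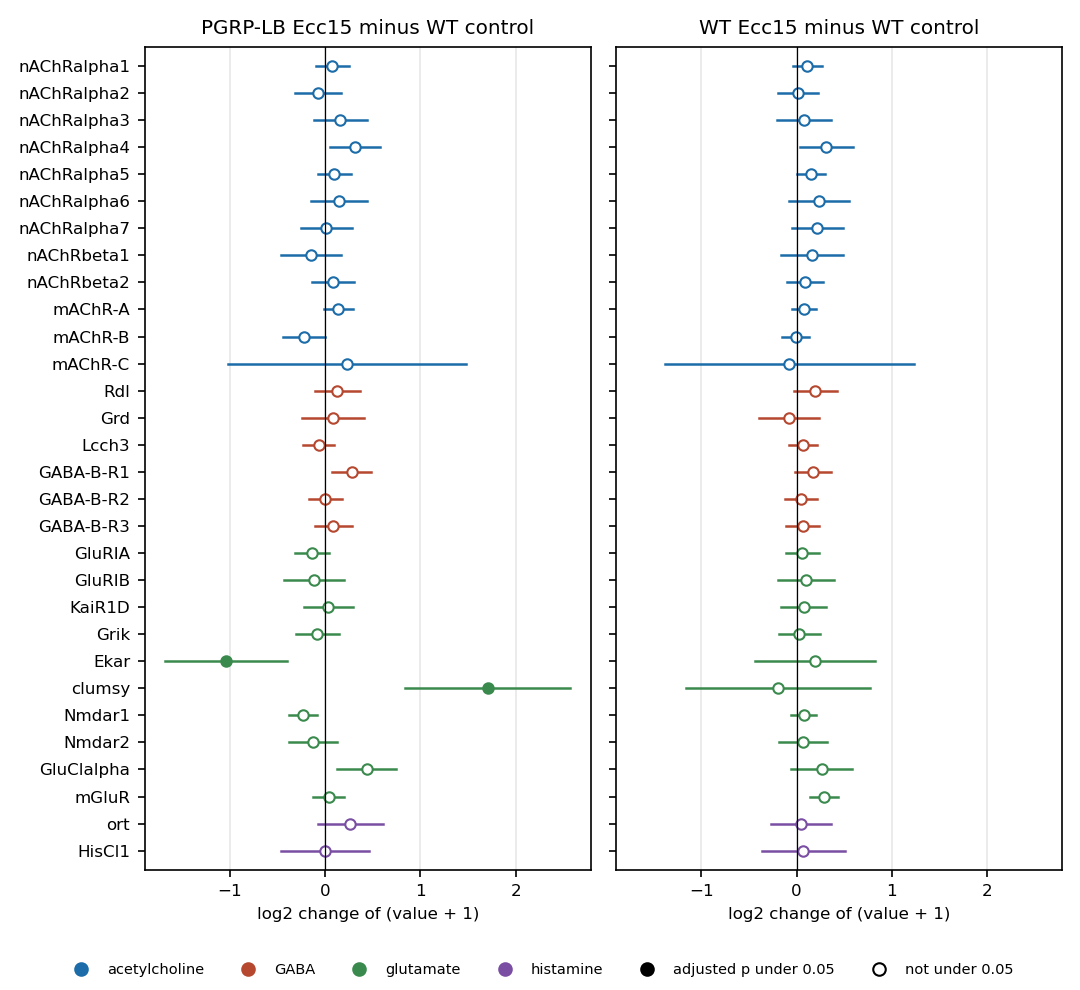
Log2 change of (value + 1), with 95% intervals from limma, of the 30 detected receptor genes in PGRP-LB Ecc15 (left) and WT Ecc15 (right), each against WT control in its own table. Filled circles have an adjusted p under 0.05: *clumsy* at 1.71 and *Ekar* at -1.04, both in PGRP-LB Ecc15. In the right panel no circle is filled and the estimates run from -0.20 to 0.31.

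In WT Ecc15 brains no receptor gene passed the test against WT control, and most members had small positive log2 changes. Of all 13085 tested genes 0.122% were called higher and 0 lower. Without adjustment 3 members had a p under 0.05, beside 7.28% of all genes, and the authors' deposited table calls 1 member, *mGluR*, higher, beside 0.943% of the genes it tests (0.830% higher and 0.113% lower). That unadjusted count was 1 to 11 with 1 library left out, 11 without WT control S3 and 1 without WT control S1, WT Ecc15 S1 or WT Ecc15 S3. The members' log2 changes ran from -0.20 for *clumsy* to 0.31 for *nAChRalpha4*, with a median of 0.08 beside -0.00 over all genes. Of the 30 members 26 lay above 0, beside 49.5% of all genes, and 24 under quantile normalization. Leaving out 1 library at a time gave 20 to 28 members above 0, the lowest without WT control S1.

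The groups did not overlap for 4 of 30 members (13.3%), beside 12.6% of all genes (6.93% higher and 5.67% lower), and all 4 were higher in WT Ecc15: *nAChRalpha1*, *nAChRalpha5*, *Rdl* and *mGluR*. *mGluR* (chromosome 4, 936819 to 949441, plus strand) had 10086, 9831 and 9502 normalized counts in WT Ecc15 libraries, against 7684, 7783 and 8647 in WT control libraries. The log2 change was 0.29 (SE 0.06) with a limma adjusted p of 0.304, and the authors' deposited table gives 0.0112. No alternative fit brought its limma adjusted p under 0.107. In PGRP-LB Ecc15 brains *mGluR* overlapped with WT control, as given before.

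The nicotinic alpha genes all had log2 changes above 0 in WT Ecc15 brains, 7 of 7, and 6 of 7 under quantile normalization. *nAChRalpha4* had 10429, 8762 and 9344 normalized counts in WT Ecc15, against 6735, 7290 and 9073 in WT control libraries, an overlap at the top of the control range. *nAChRalpha5* had 12855, 13281 and 13341 in WT Ecc15, against 11037, 12543 and 11932 in WT control libraries, without overlap, and a log2 change of 0.15. Their limma adjusted p were 0.639 and 0.664. *Rdl* had 28686, 26471 and 28451 normalized counts in WT Ecc15, against 21031, 26382 and 25813 in WT control libraries, separated by a narrow gap. *nAChRalpha1*, at 5078, 5211 and 5328 in WT Ecc15 and 4400, 5065 and 4981 in WT control libraries, was separated as narrowly.

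The acetylcholine receptor sum in WT Ecc15 libraries was 27821, 25097 and 26259 per kilobase, against 20536, 23269 and 27663 in WT control libraries, with WT control S3 within the exposed range. The share of *nAChRbeta1* in that sum was 44.5% to 46.0% in WT Ecc15, inside the 43.3% to 47.2% of WT control libraries. For 28 of 30 members the 95% interval lay within 2-fold and for 25 within 1.5-fold either way, beside 62.9% and 53.2% of all genes. These all-gene shares include genes with means down to 1 and are not matched for level. The exceptions to the 2-fold bound were *clumsy* and *mAChR-C*. Neuron markers had a median log2 change of 0.04 in WT Ecc15 brains. Markers of other cells moved beside them: the 8 fat body markers summed to 296453 to 411936 in WT Ecc15, against 107936 to 262318 in WT control libraries, and the 8 haemocyte markers to 37650 to 46490 in WT Ecc15, against 31345 to 34685. None of these markers was at 0 and none passed the limma test. Of the fat body and haemocyte markers 5 and 4 had an unadjusted p under 0.05, beside 7.28% of all genes. The authors' deposited table calls 2 of the fat body and 4 of the haemocyte markers higher, beside 0.830% of the genes it tests. The part of these markers in the receptor values was not tested.

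**Figure D5:**
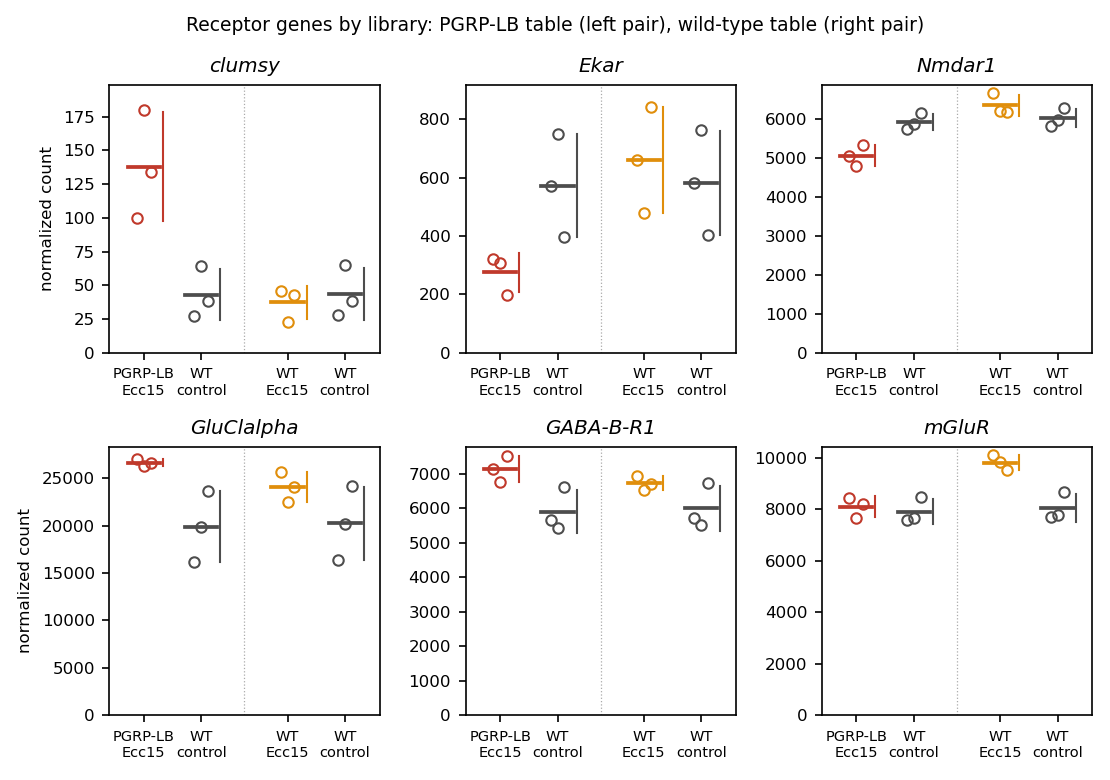
Normalized counts by library for 6 receptor genes: circles are libraries, horizontal bars group means and vertical lines ± 1 SD (n = 3). The left pair in each panel is PGRP-LB Ecc15 and WT control in the PGRP-LB table, the right pair WT Ecc15 and WT control in the wild-type table, and every axis starts at 0. *clumsy* stands apart in PGRP-LB Ecc15 at 100 to 180, *Ekar* lies at 198 to 321 there, and *mGluR* stands apart in WT Ecc15 at 9502 to 10086.

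Other genes around these receptors were examined as 4 lists. Against WT control none of their genes passed the limma test in WT Ecc15 brains, beside 0.122% of all genes. By list 2, 3, 0 and 1 had an unadjusted p under 0.05, beside 7.28% of all genes. The authors' deposited table calls 1, *CG8916*, beside 0.943% of the genes it tests. In PGRP-LB Ecc15 brains limma called 9.65% of all genes higher and 6.26% lower, the shares to set beside the counts that follow. Of 11 other ligand-gated channel genes, among them the muscle-type glutamate receptors, 2 rose and 0 fell. The list median log2 change was 0.22 beside 0.01 over all genes. Of 17 tested genes of transmitter supply and clearance 3 rose and 3 fell (median -0.08), of 14 genes of receptor assembly and synapse 1 rose and 1 fell (median -0.01), and of 14 G protein and effector genes 1 rose and 3 fell (median -0.03). With 1 library left out, the supply and clearance list kept 0 to 2 calls higher and 1 to 3 lower: 5 calls without WT control S3, 4 without WT control S1, 1 without PGRP-LB Ecc15 S3 and 2 without any of the others. The assembly list then had 1 higher and 0 lower in every fit, and the G protein list 0 to 1 higher and 2 to 4 lower, with 2 calls in all without PGRP-LB Ecc15 S1. Beside them, 6 of 9 glial markers fell in PGRP-LB Ecc15, with a summed level of 104522 to 113042, against 133478 to 149037 in WT control libraries. That count was 3 to 6 with 1 library left out, and 3 without WT control S2 or PGRP-LB Ecc15 S2. The 8 haemocyte markers, of which 2 fell (1 without any WT control library), summed to 16637 to 23789 in PGRP-LB Ecc15, against 30698 to 34115 in WT control libraries, and the 8 fat body markers, of which 1 rose, to 95122 to 543397, against 105720 to 258864. No listed marker was at 0 in all libraries, and their part in the results was not tested.

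The other channel genes that rose were relatives of the GABA and glutamate-gated chloride channels. *pHCl-1*, a chloride channel gated by pH, had 6464, 5688 and 6160 normalized counts in PGRP-LB Ecc15, against 3969, 4398 and 4448 in WT control libraries (log2 change 0.51, limma adjusted p 0.0053). *CG8916*, which encodes a predicted GABA receptor-like subunit, had 1396, 1430 and 1589 in PGRP-LB Ecc15, against 1051, 919 and 1013 in WT control libraries (0.57, limma adjusted p 0.0060). Neither group overlapped with its controls, and both genes passed in all 15 alternative fits. *CG8916* lies 0.546 kb from *Lcch3* on chromosome X, whose log2 change was -0.07.

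Of the listed genes of acetylcholine supply and clearance, *VAChT* was called lower and *ChT* higher in PGRP-LB Ecc15 brains. *ChAT* and *Ace* were not called, with log2 changes of 0.14 and -0.02 in the authors' deposited table (adjusted p 0.246 and 0.943). *VAChT*, the transporter that loads acetylcholine into vesicles, had 7548, 7138 and 7427 normalized counts in PGRP-LB Ecc15, against 11783, 12096 and 11427 in WT control libraries. It fell by 0.67 on the log2 scale (limma adjusted p 0.0005) and passed in all 15 alternative fits; it shares 8.54% of its exon bases with *ChAT*, whose locus contains it, so its value depends on how shared reads were counted. *ChT*, the choline transporter, had 3448, 2986 and 3282 in PGRP-LB Ecc15, against 2300, 2530 and 2689 in WT control libraries (0.37, limma adjusted p 0.0272). It passed in 9 of 15 alternative fits, and 69.5% of its exons are shared with *CG46318* on the same strand. *e* (ebony), a glial enzyme that conjugates histamine after its release, had 5698, 6056 and 6452 in PGRP-LB Ecc15, against 3027, 4502 and 3567 in WT control libraries (0.73, limma adjusted p 0.0144; 12 of 15 fits). *Gdh*, glutamate dehydrogenase, had 6799, 6576 and 7156 in PGRP-LB Ecc15, against 8541, 9896 and 8241 in WT control libraries (-0.37, limma adjusted p 0.0245; 9 of 15 fits).

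The other two called genes of that list are named after their values were seen. *VGlut*, the vesicular glutamate transporter, had 13564, 12217 and 13100 normalized counts in PGRP-LB Ecc15, against 10870, 10644 and 11340 in WT control libraries (0.24, limma adjusted p 0.0445). *Gs2*, a glutamine synthetase that is also among the glial markers, had 46008, 46618 and 45763 in PGRP-LB Ecc15, against 52557, 66390 and 60507 in WT control libraries (-0.37, limma adjusted p 0.0461). Of the 6 fits without 1 library, *VGlut* passed in 0 and *Gs2* in 1, that without WT control S1.

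Among the assembly genes *Nlg1*, a neuroligin that acts in postsynaptic differentiation, had 147, 136 and 165 normalized counts in PGRP-LB Ecc15, against 50, 56 and 29 in WT control libraries. That was a log2 change of 1.76 (SE 0.28, limma adjusted p 0.0077), and it passed in all 15 alternative fits. *hig*, a matrix protein of cholinergic synaptic clefts, had 32372, 29994 and 33264 in PGRP-LB Ecc15, against 41904, 37762 and 40007 in WT control libraries (-0.32, limma adjusted p 0.0300), and it lost its call in each of the 6 fits without 1 library. The summed level of the muscle markers was also higher in PGRP-LB Ecc15, at 22351 to 39275, against 4152 to 17481 in WT control libraries. Singly, 11 of the 13 had log2 changes above 0 and 2 below 0, beside 51.6% of all genes above 0. Of 13, 1 was called higher, beside 9.65% of all genes. That count was 3 without WT control S2, 2 without WT control S3 and 0 without any of the others. None of the 13 was at 0. Whether muscle RNA bears on *Nlg1* was not tested.

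In the list of G protein and effector genes, the inward rectifier potassium channel genes *Irk2* and *Irk3* fell in PGRP-LB Ecc15 brains. Some mammalian relatives of these channels are opened by G proteins, and a link of the fly genes to the receptors was not tested. *Irk1*, also listed, was not called, with a log2 change of 0.36 and an adjusted p of 0.578 in the authors' deposited table. *Irk2* had 3814, 4135 and 4516 normalized counts in PGRP-LB Ecc15, against 7286, 7947 and 7288 in WT control libraries (log2 change -0.86, limma adjusted p 0.0008; 15 of 15 alternative fits). *Irk3* had 1771, 1559 and 1875 in PGRP-LB Ecc15, against 2553, 2231 and 2380 in WT control libraries (-0.46, limma adjusted p 0.0153; 12 of 15 fits). *Gbeta5*, a G protein beta subunit, had 3182, 3226 and 3521 in PGRP-LB Ecc15, against 4189, 4142 and 4328 in WT control libraries (-0.35, limma adjusted p 0.0108; 14 of 15 fits). *Itpr*, the calcium release channel opened downstream of Gq, rose, with 9001, 8600 and 8839 in PGRP-LB Ecc15, against 7354, 7338 and 7480 in WT control libraries (0.25, limma adjusted p 0.0184; 11 of 15 fits). The *Itpr* gene overlaps *Nmdar1* on the opposite strand of chromosome 3R, with no shared exon bases.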

How the data were processed

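RNA was measured in 9 libraries of dissected fly brains, 3 a group. Per the labels, 250 ng of RNA went into stranded poly(A) libraries read at 100 bases. Per the submitters' processing notes, the authors' tools included DESeq2, featureCounts, HTSeq and HISAT2, without their roles; the sources used here give neither the build and annotation nor whether counting used strand. Of 12 deposited tables, 2 were used, each with 17562 gene IDs. Per library the deposited values are whole numbers, which the authors scaled within each table, treated as a score and called normalized counts; the same control libraries differed between tables by factors of 1.013, 1.017 and 1.021. The authors' fold change, its log2 value and the p-value, raw and adjusted, are deposited columns, per the file headers, and any value quoted from them is credited to that table.

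Each table was fitted on its own with limma-trend in R 4.3.3 (limma 3.58.1). Values entered as log2(value + 1), genes needed a mean of 1 or more, and two-sided p-values were adjusted by Benjamini-Hochberg over all genes, with calls under 0.05. The fit was tested on simulated data. The added 1 makes the changes of low genes look smaller. Lengths and positions come from the Ensembl 115 annotation of BDGP6 by symbol. Named were all members, and of each of 4 other lists up to 4 genes with the smallest adjusted p among those called. Members, 10 lists (6 of markers) and tests were chosen with earlier results of these data known. Alternatives were the pseudocount, the filter, scaling, the variance trend, 1 fit over 9 libraries and leaving out each library. Photoreceptor level as a covariate, chosen after seeing the data, was a further alternative. It is included in every count of alternative fits.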

Additional observations from a re-analysis of the deposited data

How the results depend on the processing

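Against WT control, 2 members were called in PGRP-LB Ecc15 by limma, but 0 without the variance trend, 5 with 1 fit over 9 libraries, and 0 to 4 when libraries were left out one at a time. Calls over all genes in PGRP-LB Ecc15 were 1172 to 1732 with a library left out, beside 2130. In WT Ecc15 no alternative called a member; calls over all genes were 0 without the trend, 28 with 1 fit over 9 libraries, 47 with photoreceptor level as a covariate and 0 to 19 with a library left out, beside 16. Between the exposed groups 4 members were called, 9 with the photoreceptor covariate and 2 to 6 with a library left out, and calls over all genes were 1349 to 2510 with a library left out, beside 2199. The covariate was chosen after seeing the data. Quantile normalization changed the split of calls to 1054 higher and 1298 lower in PGRP-LB Ecc15 against WT control, beside 1292 and 838, and to 1078 and 1393 against WT Ecc15, beside 1319 and 880. The causes were not tested. Of the members' log2 changes in both comparisons with WT control under the 15 alternatives, 850 kept their call and size, 29 moved by over 1 SE, 10 gained and 11 lost a call, and none reversed a call. Of the other genes named in PGRP-LB Ecc15 against WT control, leaving out a library ended the call of *ChT* (WT control S1 or S2, PGRP-LB Ecc15 S1 or S3), *e* (PGRP-LB Ecc15 S2 or S3), *Gdh* (WT control S2 or any PGRP-LB Ecc15 library), *hig* (any library), *Irk3* (WT control S1 or PGRP-LB Ecc15 S1) and *Itpr* (WT control S2, PGRP-LB Ecc15 S1 or S3), with adjusted p up to 0.109. Between the exposed groups it ended the call of *Ekar* (PGRP-LB Ecc15 S3, WT Ecc15 S1 or S3) and *mGluR* (PGRP-LB Ecc15 S2 or S3, WT Ecc15 S1 or S2), with adjusted p up to 0.0925. Depth limits *clumsy* and *mAChR-C*, the detected members with the fewest counts. No paired analysis was possible because the groups compared share fewer than 2 replicate numbers and the column marks match no sample title.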

Other observations

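The exposed groups were also set against each other in a fit over all 9 libraries on a common scale. Both were fed the bacterium, so they differ in genotype and strain. For PGRP-LB Ecc15 against WT Ecc15, limma called 9.97% of 13224 genes higher and 6.65% lower, and of the 30 detected members 1 higher and 3 lower, all glutamate receptors. *clumsy* had 101, 183 and 136 normalized counts on that scale in PGRP-LB Ecc15 and 45.6, 22.7 and 42.5 in WT Ecc15 libraries, a log2 change of 1.91 with a limma adjusted p of 0.0090 that passed in all 16 alternative fits. *Ekar* had 324, 311 and 201 in PGRP-LB Ecc15 and 656, 472 and 831 in WT Ecc15 libraries, a log2 change of -1.22 (limma adjusted p 0.0172; 13 of 16 fits). *Nmdar1* had 5089, 4854 and 5388 in PGRP-LB Ecc15 and 6590, 6108 and 6100 in WT Ecc15 libraries, a log2 change of -0.29 (limma adjusted p 0.0079; 16 of 16 fits). *mGluR* had 8526, 7779 and 8299 in PGRP-LB Ecc15 and 9997, 9708 and 9387 in WT Ecc15 libraries, a log2 change of -0.24 (limma adjusted p 0.0252; 11 of 16 fits). Over all 30 members 11 had log2 changes above 0 in this contrast, beside 51.4% of all genes, and 12 did not overlap, beside 38.9% of all genes. By transmitter, 3 of 12 acetylcholine, 2 of 6 GABA, 7 of 10 glutamate and 0 of 2 histamine receptor genes did not overlap. Of the 10 glutamate receptor genes 2 had log2 changes above 0, with a median of -0.19 beside 0.01 over all genes. The median of all 30 members was -0.05. Under quantile normalization 9 of the 30 members lay above 0, with a median of -0.08 beside -0.08 over all genes. The lower position of the members against all genes thus depended on the scaling.

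Neighbouring genes were examined for *clumsy*, *Ekar*, *Nmdar1*, *GluClalpha* and *GABA-B-R1*, and those named were chosen after their values were seen. Of the 10 nearest tested neighbours of *clumsy*, 5 on each side, 0 were called higher and 1 was called lower in PGRP-LB Ecc15 against WT control. *CG8679* was that gene, with a log2 change of -0.63. *Mcm10* had the highest change of the 10, a log2 change of 2.40, larger than that of *clumsy*, at means of 9.33 normalized counts in PGRP-LB Ecc15 and 0.667 in WT control libraries (limma adjusted p 0.0668). Among the 10 neighbours of *Ekar* 2 were called higher and 0 lower, and *Gat*, the GABA transporter beside it on chromosome 4, had a log2 change of -0.04. *CR44028* lies on the opposite strand within the span of *Ekar* and shares no exon bases with it. It had the lowest change of the 10, a log2 change of -2.50 (limma adjusted p 0.0641). Its means were 3.33 normalized counts in PGRP-LB Ecc15 and 17.7 in WT control libraries. Of 10 neighbours each, 2 were called higher and 0 lower for *Nmdar1*, and 1 and 1 for *GluClalpha*. For *GABA-B-R1* 2 were called higher and 1 lower, beside 9.65% and 6.26% of all genes. The 2 higher ones, *CG33310* and *CG31832*, lie within the span of *GABA-B-R1* and share no exon bases with it. Their log2 changes were 1.46 and 1.72 (limma adjusted p 0.0112 and 0.0052).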
